A study of Mus musculus with 18 samples.

Results

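The 8 genes described here act in transport or Sonic hedgehog (Shh) signalling at the primary cilium, or in the assembly of its complexes. All were followed through RNA-Seq and Ribo-Seq of mouse embryos at E11.5. They were *Ift172*, *Evc* and *Dync2h1* together with every further gene whose symbol begins with Ift, Bbs or Evc among the gene identifiers that the supplementary lists of the study pair with a symbol. That search allowed 7 further genes and returned 5, which were *Evc2*, *Ift20*, *Ift27*, *Bbs7* and *Bbs10*, so no gene was dropped for a low level and 8 of the 3379 genes with a symbol are described. All 8 were measured among the 12064 genes of the mesoderm and among the 11231 genes of the neural tube (NT) and forelimb buds (FL). The genes were thereby chosen by their translational efficiency (TE, ribosome-protected fragments over mRNA), since the lists that supplied the symbols hold genes with a low or a tissue-dependent TE, and those lists were read in shortened form. *Ift172*, *Dync2h1* and *Evc* stood in both lists, *Ift20*, *Ift27*, *Bbs7* and *Bbs10* only in the readable part of the NT and FL list, and *Evc2* only in that of the mesoderm list. A value from the contrast that placed a gene in a list is therefore given as a description with no test. Tests are read only for the mesoderm TE of the 4 genes from the NT and FL list and for the NT and FL values of *Evc2*. Even there, absence from the readable part of a list depends to some degree on the same values. Where the other genes are counted as past a threshold, the count is a description that the choice of genes helped to set, and the share of all genes beside it is given for scale.

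Each of the 3 tissues had 3 RNA-Seq and 3 Ribo-Seq replicates, 18 libraries in all. The mesoderm libraries came from GFP+ cells that were sorted from embryos that were R26-mTmGflox/+; Tg(T-cre)1LWD/J/+, in which Cre driven by the T promoter switches a membrane reporter to green in cells that descend from the primitive streak. NT and FL were dissected from the same FVB embryos and not sorted, so each holds every cell type of that piece of tissue. The cells of each tissue were divided between RNA-Seq and Ribo-Seq, but for NT and FL the methods do not say that equal replicate numbers mark the same embryos or cells. Values by replicate in NT and FL therefore set libraries of equal number side by side as a description, not as one sample. Cycloheximide, which arrests elongating ribosomes, was used in the preparation of all 3 tissues. Values are normalized reads on the coding sequence (CDS) without its first 15 and last 5 codons. Because the mesoderm was normalized apart from NT and FL, reads of the mesoderm are not set against theirs.

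In vertebrates the Shh signal is relayed through the primary cilium, a microtubule-based antenna into which receptors and transducers of the pathway are moved. Cargo travels towards the tip on intraflagellar transport (IFT) trains pulled by kinesin-2 and returns on trains pulled by dynein-2, while the BBSome, a coat complex that rides on the trains, takes membrane proteins out of the cilium. EVC and EVC2 form a complex at the base of the cilium that binds activated Smoothened and passes the Shh signal on. IFT172, IFT20 and IFT27 belong to the IFT-B complex of the trains, DYNC2H1 is the motor heavy chain of dynein-2, BBS7 is a BBSome subunit and BBS10 is a chaperonin-like protein needed for BBSome assembly. Limb buds and the ventral neural tube are both patterned by Shh, and loss of IFT or EVC function alters the limb skeleton.

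The genes differ widely in length. Their annotated CDS in the GENCODE M21 annotation of GRCm38 (mm10) ran from 399 nt in *Ift20* and 561 nt in *Ift27*, through 2142 nt in *Bbs10*, 2148 nt in *Bbs7*, 3018 nt in *Evc* and 3663 nt in *Evc2*, to 5250 nt in *Ift172* and 12942 nt in *Dync2h1*. TE is a measure of ribosomes on the CDS, so the bases at which translation of each CDS starts are shown, 9 bases of the 5′-UTR followed by the start codon in capitals and the next codon, on the mRNA strand:
Evc: gagccctccATGacc
Evc2: agccaccagATGggg
Ift172: gtgtacgtcATGcag
Dync2h1: tccgcggccATGgcg
Bbs7: gcggccgccATGgat
Bbs10: tccttacccATGgcg
Ift27: ctggttactATGgtg
Ift20: gaaacagctATGgcc
A purine lies 3 bases before the start codon in *Ift172*, *Dync2h1*, *Bbs7*, *Ift27* and *Ift20*, and a pyrimidine lies there in *Evc*, *Evc2* and *Bbs10*. The annotated 5′-UTR was 101 nt long with 1 upstream AUG (uAUG) in *Evc* and 49 nt long with 0 uAUGs in *Evc2*. It was 95 nt with 1 uAUG in *Ift172*, 192 nt with 1 in *Bbs7* and 44 nt with 0 in *Bbs10*. It was longest in the IFT-B gene *Ift20*, at 447 nt with 8 uAUGs, and measured 305 nt with 2 in *Ift27*. The *Dync2h1* transcript shown, with a CDS of 12921 nt, carried 381 nt with 5 uAUGs. The isoforms that the study counted can differ from these.

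*Evc* (uc008xfo.2) lies at chr5:37289098-37336894 on the minus strand and *Evc2* (uc008xfs.2) at chr5:37338499-37425055 on the plus strand, head to head with 1604 bases between the annotated genes. *Ift172* (uc008wyb.1) lies at chr5:31253277-31291116 on the minus strand, *Dync2h1* (uc009occ.1) at chr9:6928503-7184446 on the minus strand and *Bbs7* (uc008ozq.2) at chr3:36573142-36613477 on the minus strand. *Bbs10* (uc011xnf.1) lies at chr10:111298679-111301727 on the plus strand, *Ift27* (uc007wor.1) at chr15:78159463-78174107 on the minus strand and *Ift20* (uc007kjt.1) at chr11:78536361-78541737 on the plus strand.

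The third Ribo-Seq library of NT and that of FL stood apart from the other two of their tissue. On log2(normalized reads + 1), NT Ribo-Seq 3 correlated with replicates 1 and 2 at Pearson's r of 0.933 and 0.934, against 0.989 between replicates 1 and 2, and FL Ribo-Seq 3 at 0.886 and 0.896, against 0.976. Of 9553 genes whose TE differed between FL and NT with the same sign in replicates 1 and 2, 64.9% had the opposite sign in replicate 3. The counts of genes past the thresholds and the tests of *Evc2* that rest on Ribo-Seq are therefore given with and without replicate 3. Reads on the genes of the tables ranged from 38054003 to 50136443 in mesoderm RNA-Seq and from 11000015 to 16802829 in mesoderm Ribo-Seq. In NT and FL they ranged from 24555103 to 33061460 in RNA-Seq and from 12967893 to 31993255 in Ribo-Seq. Neural tube and limb markers went with the labels of NT and FL. Of 14 neural tube markers 5 had a symbol (*Nes*, *Dcx*, *Ina*, *Nefm*, *Crabp1*), and their summed normalized RNA-Seq reads were 46181 to 65259 in NT and 5973 to 6982 in FL. The sum of the 3 of 10 limb markers with a symbol (*Hoxd11*, *Hoxd13*, *Msx1*) was 1026 to 1489 in NT and 13223 to 17102 in FL. By the marker sums, the Ribo-Seq libraries that stand apart followed their labels in direction too. The neural sum was 109731 in NT Ribo-Seq 3, against 93454 and 95992 in NT Ribo-Seq 1 and 2. It was 5944 in FL Ribo-Seq 3, against 8263 and 8566 in FL Ribo-Seq 1 and 2. Single markers moved in opposite directions within that sum. In FL Ribo-Seq 1, 2 and 3 *Nes* read 1175, 1198 and 2390, and *Crabp1* read 5869, 6584 and 2647. In the limb sum NT Ribo-Seq 3 and FL Ribo-Seq 3 each lay nearer the other tissue. The limb sum was 1518 in NT Ribo-Seq 3, above the 642 and 807.5 of NT Ribo-Seq 1 and 2. It was 8831 in FL Ribo-Seq 3, below the 14627 and 17923 of FL Ribo-Seq 1 and 2. Not every limb marker followed the sum. *Hoxd11* read 1442, 1694 and 1484 in FL Ribo-Seq 1, 2 and 3, and *Hoxd13* read 51.3, 95.9 and 84.1 in NT Ribo-Seq. Of the other cell types, the erythroid globin *Hba-x* read 10789 to 23440 in RNA-Seq of both dissected tissues, and the epithelial marker *Epcam* read 96.0 to 659 in NT and 537 to 690 in FL, with the 659 in NT RNA-Seq 1. In Ribo-Seq, *Hba-x* read 48778 to 66360.4 in NT and 84882 to 164781 in FL, lowest of FL in replicate 3, and *Epcam* read 60.9 to 187 in NT and 1215 to 1899 in FL. The somite marker *Tcf15* read 436, 125 and 53.0 in NT RNA-Seq 1, 2 and 3 and 83.2 to 143 in FL RNA-Seq. In Ribo-Seq *Tcf15* read 190 to 235 in NT and 184 to 315 in FL. In mesoderm RNA-Seq the sum of *Tcf15* and *Myf5* was 717 to 977, the neural sum 10501 to 13839 and the limb sum 5311.5 to 8300. The part of these cell types in the values of the ciliary genes was not tested.

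In the mesoderm, the 2 genes of the EVC complex, the motor *Dync2h1* and *Ift172* carried few ribosomes for their mRNA, and the other 4 genes lay near the median gene. *Evc* had 1930, 1996 and 2058 normalized RNA-Seq reads in replicates 1, 2 and 3 and 407, 340.2 and 404 Ribo-Seq reads. *Evc2* had 1889, 2123 and 2022 RNA-Seq reads and 614, 398 and 585 Ribo-Seq reads. In both genes, as in *Ift172* and *Dync2h1*, every Ribo-Seq value lay below every RNA-Seq value. In reads not divided by CDS length, the values of *Evc* and *Evc2* overlapped in both measures. *Ift172* had 3750.2, 3586 and 3206 RNA-Seq reads and 1375, 521 and 1204 Ribo-Seq reads, the lowest of them in replicate 2. *Dync2h1* had 3479, 1072 and 2339 RNA-Seq reads and 672, 203 and 510.4 Ribo-Seq reads, with both measures lowest in replicate 2, so that its TE stayed within a narrow range. Log2 TE, centred on the median gene, was -2.41 ± 0.13 in *Evc*, -2.35 ± 0.11 in *Dync2h1*, -1.97 ± 0.39 in *Evc2* and -1.91 ± 0.76 in *Ift172* (SD, n = 3).

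These 4 genes were past the TE-low thresholds, which ask for a TE that is at least 3-fold below the median gene with an adjusted p under 0.05, in a limma model with the replicate number as a block. Among all 12064 genes 1317 were TE-low (10.9%), but the 4 genes reached this report through a list of such genes, so their count carries no weight of its own. *Ift172* rested on replicate 2. Its log2 TE of -1.50, -2.79 and -1.45 in replicates 1, 2 and 3 gave -1.92 in the model, and -1.48 without replicate 2, which is short of 3-fold. Mesoderm replicate 2 also read highest for *Hba-x*, with 12367 RNA-Seq reads against 2250.5 and 4719 in replicates 1 and 3 and 84280.2 Ribo-Seq reads against 9340 and 18362, and the part of blood in the *Ift172* value was not tested.

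The mesoderm TE of the remaining 4 genes did not place them in a list and was tested. Their absence from the readable part of the mesoderm list depends to some degree on the same values. *Bbs7*, the BBSome subunit, had 579, 288 and 339 normalized RNA-Seq reads and 456, 189 and 244 Ribo-Seq reads in replicates 1, 2 and 3, both highest in replicate 1. Its log2 TE was -0.51 ± 0.18 (SE, limma with Benjamini-Hochberg adjustment, adjusted p = 0.026), lower than the median gene by 1.42-fold and in all 3 replicates, which is short of the fold that a TE-low call needs. Without the block the adjusted p was 0.33, and without replicates 1 and 3 in turn it was 0.061 and 0.18. *Bbs10*, the chaperonin-like gene, was the least abundant, with 176, 106 and 132 RNA-Seq reads and 246, 80.9 and 154 Ribo-Seq reads, and the 2 measures overlapped. Its log2 TE was 0.07 ± 0.23 (SE, limma, adjusted p = 0.80, 95% interval -0.44 to 0.58) and turned to -0.10 without replicate 1.

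*Ift27*, the small GTPase of IFT-B, had 645, 818 and 565 normalized RNA-Seq reads and 778, 1143 and 691 Ribo-Seq reads in the mesoderm. Ribosomes exceeded mRNA in each replicate, but log2 TE, at 0.31 ± 0.17 (SE), did not pass the test (limma, adjusted p = 0.12, 95% interval -0.06 to 0.68). *Ift20*, the IFT-B subunit that also sits at the Golgi, had 493, 285 and 189 RNA-Seq reads and 326, 243 and 219 Ribo-Seq reads. Its log2 TE of -0.24 ± 0.21 (SE) did not pass either (limma, adjusted p = 0.32, 95% interval -0.69 to 0.21). Whether the TE of these 4 genes differed from that of the EVC pair was not tested.

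Per length, the order of the means differed between mRNA and ribosomes only among genes whose Ribo-Seq spreads overlapped. In normalized RNA-Seq reads per kb of counted CDS in the mesoderm, *Ift27* stood at 1349 ± 259, *Ift20* at 951 ± 459, *Ift172* at 677 ± 53.8, *Evc* at 674 ± 21.8 and *Evc2* at 558 ± 32.6 (SD, n = 3). *Bbs7* at 193 ± 74.6, *Dync2h1* at 178 ± 93.5 and *Bbs10* at 66.2 ± 17.0 were the lowest, and *Bbs7* and *Dync2h1*, like *Ift172* and *Evc*, did not differ beyond their spread. In Ribo-Seq reads per kb, *Ift27* again led at 1738 ± 479 and *Ift20* followed at 775 ± 166. *Ift172* at 199 ± 87.1, *Evc2* at 148 ± 32.5, *Bbs7* at 142 ± 67.5 and *Evc* at 130 ± 12.7 could not be separated by their spread, although their mRNA levels spanned a wider range. *Bbs10* at 76.9 ± 39.7 and *Dync2h1* at 35.8 ± 18.5 came last.

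Between the dissected tissues, the mRNAs of the EVC complex were the ones that stood out. *Evc2* mRNA had 908, 659 and 756 normalized reads in NT and 2033, 1830 and 1681 in FL replicates 1, 2 and 3, with no overlap. The difference was 1.26 ± 0.33 on the log2 scale (SE, limma, adjusted p = 0.013, 95% interval 0.55 to 1.97), 2.40-fold higher in FL, and passed the thresholds for a tissue difference, which ask for at least 2-fold and an adjusted p under 0.2. Of all genes tested, 978 of 11231 (8.71%) were FL-higher by this rule and 1150 (10.2%) NT-higher. Without replicates 1, 2 and 3 in turn the *Evc2* difference was 1.31, 1.16 and 1.32. *Evc* mRNA had 825, 917 and 650.2 normalized reads in NT and 2124, 2104 and 1802 in FL, again with no overlap, a log2 difference of 1.34 given here as a description. In a dissected tissue, fewer cells of a type and less RNA per cell cannot be told apart.

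The other mRNAs differed less. *Ift172* mRNA read 2006, 2274 and 2381 in NT and 3083, 3784 and 3369 in FL, without overlap and with a log2 difference of 0.62. *Dync2h1* mRNA read 1771, 4974 and 4385 in NT and 3947, 3751 and 3778 in FL, where the first NT library lay far below the other two. *Bbs7* showed the same low first NT library, with 251, 495 and 508 in NT and 599.7, 577 and 592 in FL. Log2 differences of mRNA were 0.18 for *Dync2h1*, 0.56 for *Bbs7*, 0.71 for *Bbs10*, 0.32 for *Ift20* and -0.27 for *Ift27*. Only the 2 EVC mRNAs of the 8 passed the thresholds, and the mRNA groups did not overlap in *Evc*, *Evc2*, *Ift172*, *Bbs7* and *Bbs10*, each higher in FL, where 23.3% of all 11231 genes had FL values wholly above those of NT.

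**Figure D1:**
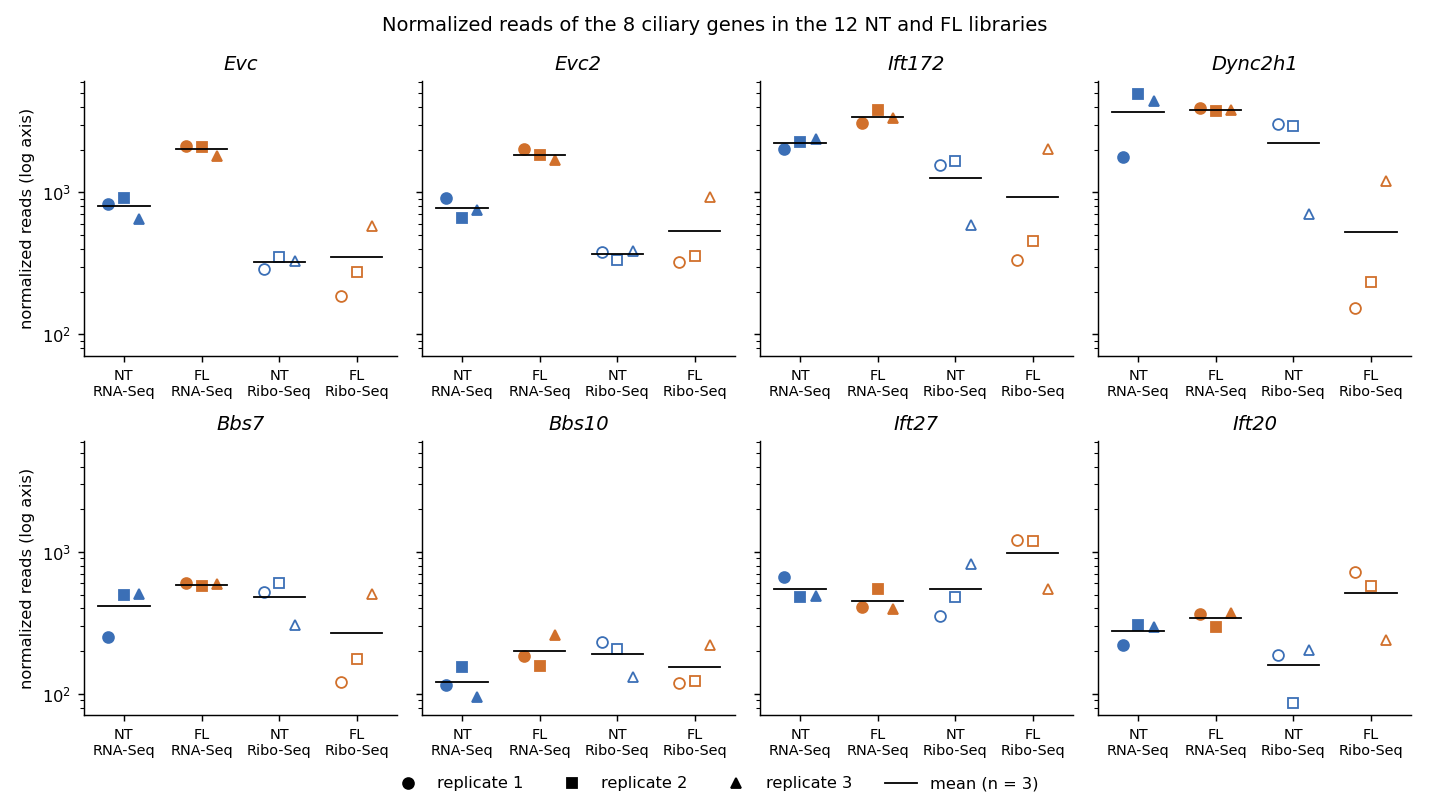
Normalized reads (log axis) of the 8 ciliary genes in each NT and FL library, filled symbols for RNA-Seq, open symbols for Ribo-Seq, one symbol shape for each replicate number and bars at the mean of 3 replicates. The mRNAs of *Evc* and *Evc2* were higher in all 3 FL libraries, and the triangles of replicate 3 part from the other open symbols, most of all in *Dync2h1* and *Ift172*.

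Ribosomes on the same genes depended on the replicate. *Dync2h1* had 3028, 2934 and 700.2 normalized Ribo-Seq reads in NT and 152, 232 and 1196 in FL. In replicates 1 and 2 the FL value was 0.0503 and 0.0792 times that of NT, and in replicate 3 it was 1.71 times. *Ift172* had 1563, 1663 and 589 Ribo-Seq reads in NT and 335, 454 and 2008 in FL, so that replicates 1 and 2 were lower in FL (0.214 and 0.273 times NT) and replicate 3 was higher (3.41 times). *Bbs7* had 526, 607 and 304 in NT and 122, 177 and 506 in FL, with the same turn.

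The EVC pair varied less. *Evc* had 289, 349 and 329 normalized Ribo-Seq reads in NT and 186, 275 and 582 in FL. *Evc2* had 381, 333 and 387 in NT and 322, 356 and 926 in FL, where replicate 3 was 2.73 times the mean of the other two. With all libraries the log2 difference in *Evc2* Ribo-Seq reads was 0.37 ± 0.33 (SE, limma, adjusted p = 0.37, 95% interval -0.34 to 1.08), and without replicate 3 it was -0.07 (limma, adjusted p = 0.77). Thus the higher *Evc2* mRNA of FL was measured without a difference in ribosomes that passed the test.

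The short IFT-B genes went the other way. *Ift20* had 187, 86.2 and 203 normalized Ribo-Seq reads in NT and 728, 579.7 and 240.4 in FL, the only one of the 8 genes whose Ribo-Seq groups did not overlap, with FL higher as in 21.5% of all genes. *Ift27* had 353, 479 and 818 in NT and 1219, 1200.0 and 545 in FL, where replicate 3 of NT exceeded replicate 3 of FL. *Bbs10* had 231, 207 and 130.5 in NT and 119, 124 and 222 in FL, and its groups overlapped only through replicate 3.

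By the thresholds for a tissue difference, 3 of the 8 genes differed in Ribo-Seq reads with all libraries (*Dync2h1* and *Bbs7* NT-higher, *Ift20* FL-higher), against 35.2% of all genes tested. Without replicate 3 it was 5 of 8, with *Ift172* NT-higher and *Ift27* FL-higher added, against 51.1% of all genes. Most of these genes were chosen by a TE that uses the same Ribo-Seq reads, so nothing is read from either count.

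TE in NT and in FL, each set against its own median gene, was lowest for the long genes in FL. In FL, log2 TE of replicates 1, 2 and 3 was -3.51, -2.95 and -1.64 in *Evc*, -2.65, -2.38 and -0.88 in *Evc2*, -3.20, -3.07 and -0.76 in *Ift172* and -4.69, -4.02 and -1.67 in *Dync2h1*. All 12 of these values were below 0, and the highest in each gene came from replicate 3. The TE of *Evc2* in FL was -1.96 ± 0.33 (SE, limma, adjusted p = 0.00051), a TE-low call that held without any 1 replicate (-1.62, -1.77 and -2.52 without replicates 1, 2 and 3). However, *Evc2* was listed for a low TE in the mesoderm, and the sorted mesoderm includes that of the limbs. Its low TE in FL is therefore not independent of how the gene was chosen. *Evc*, *Ift172* and *Dync2h1* were also past the TE-low thresholds in FL, which makes 4 of 8 genes where 13.4% of all genes were called. Without replicate 3 *Bbs7* joined them at -2.01, which makes 5 of 8 where 18.2% of all genes were called, and *Ift172* fell short without replicate 1 and without replicate 2. These 4 genes beside *Evc2* were listed for a TE contrast that uses the same FL libraries, so nothing is read from the counts.

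On average *Evc*, *Evc2*, *Ift172*, *Dync2h1*, *Bbs7* and *Ift27* lay nearer the median in NT than in FL. *Ift20*, with means of -0.90 in NT and 0.44 in FL, and *Bbs10*, with 0.60 and -0.41, lay farther from it in NT. In replicate 3, *Evc2*, *Ift172*, *Dync2h1*, *Bbs7* and *Ift27* lay farther from it in NT too. *Evc2* had log2 TE of -1.25, -1.01 and -1.03 in replicates 1, 2 and 3, which gave -1.09 ± 0.33 (SE, limma, adjusted p = 0.028), lower than the median gene by 2.14-fold and short of a TE-low call. Its adjusted p in limma was 0.16, 0.18 and 0.0039 without replicates 1, 2 and 3. *Evc* had -1.50, -1.42 and -1.05. Unlike those 2, *Dync2h1* ranged from 0.78 through -0.79 to -2.71 and *Ift172* from -0.35 through -0.48 to -2.08. None of the 8 genes was TE-low or TE-high in NT by limma, where 4.57% of all genes were one or the other, and 3 of the 8 had an unadjusted p under 0.05 against 39.9% of all genes. Without replicate 3 none was called either (3.84% of all genes), and 5 of the 8 had an unadjusted p under 0.05 against 46.0% of all genes.

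*Bbs7* had log2 TE of 1.07, 0.27 and -0.81 in NT and -2.29, -1.72 and -0.24 in FL. *Bbs10* had 1.01, 0.40 and 0.38 in NT and -0.62, -0.37 and -0.23 in FL, so it was above the median gene in every NT pair of libraries and below it in every FL pair. *Ift27* had -0.91, -0.03 and 0.66 in NT and 1.58, 1.10 and 0.44 in FL, and *Ift20* had -0.23, -1.85 and -0.62 in NT and 0.99, 0.96 and -0.63 in FL. Only *Evc* and *Bbs10* had a TE without overlap between the tissues, both higher in NT, as were 6.79% of all genes without overlap. The list that supplied them was made from this difference, so the count is a description.

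**Figure D2:**
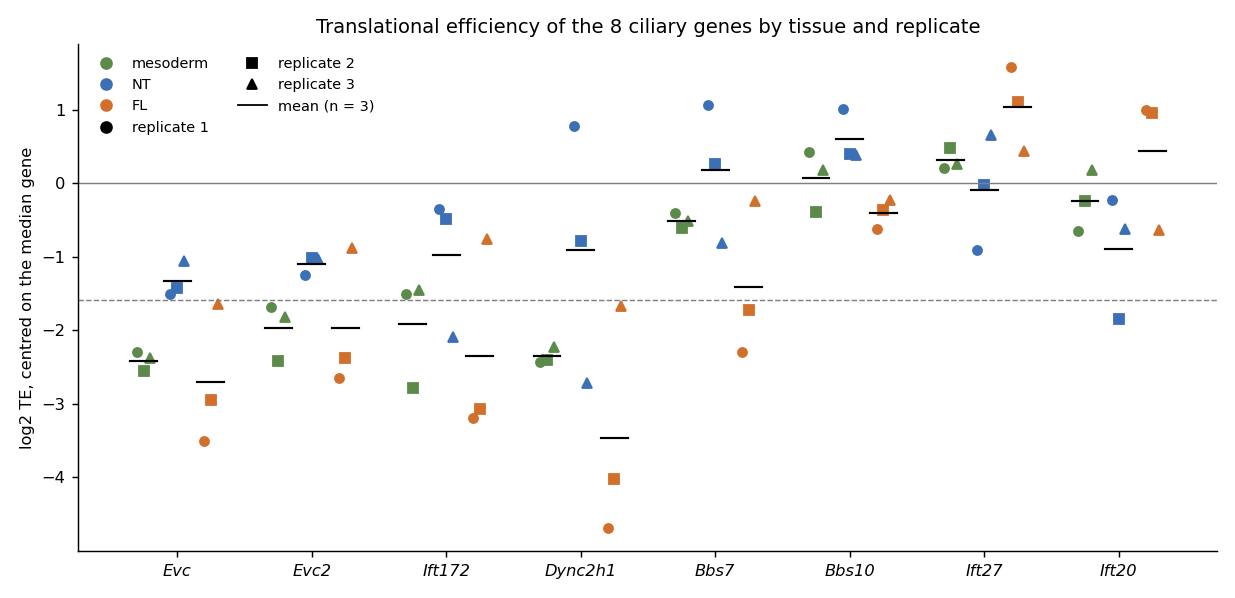
Log2 TE of the 8 genes (Ribo-Seq over RNA-Seq, centred on the median gene of each pair of libraries) in mesoderm, NT and FL, with one symbol shape for each replicate number, bars at the mean of 3, a solid line at the median gene and a dashed line 3-fold below it. The mesoderm values of *Evc*, *Dync2h1* and *Bbs7* lie close together while *Ift172* is low in replicate 2, and the FL triangles (replicate 3) lie above the other FL values in 6 genes and below them in *Ift27* and *Ift20*.

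The difference in TE between the tissues, tested as the interaction of library type and tissue, was therefore wide in its error. *Evc2* had a log2 TE difference of -0.89 ± 0.47 (SE, FL minus NT, limma, adjusted p = 0.30, 95% interval -1.90 to 0.11), and it did not pass. The values were -2.57 in *Dync2h1*, -1.61 in *Bbs7*, -1.39 in *Evc* and in *Ift172*, -1.02 in *Bbs10*, 1.11 in *Ift27* and 1.32 in *Ift20*. None of the 8 genes passed in limma, where 45 of 11231 genes did (0.401%). At an unadjusted p under 0.05 there were 5 of the 8, where 16.9% of all genes were. In edgeR none of the 8 passed (0.347% of all genes), with 3 of the 8 and 15.7% of all genes at an unadjusted p under 0.05, and in DESeq2 *Evc* and *Ift20* did (7.62% of all genes). All but *Evc2* were listed for this very difference, so these counts are no evidence about the genes. Taking the replicate number as a block left 5 NT-higher and 1 FL-higher genes of all, and a block of tissue and number 3 and 1, with none of the 8 among them.

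With libraries of equal number set side by side, the 6 genes with the longer CDS had a lower TE in FL in replicates 1 and 2. In 4 of these 6 the sign turned in replicate 3. *Dync2h1* differed by -5.47 and -3.23 in replicates 1 and 2 and by 1.04 in replicate 3. *Ift172* differed by -2.84, -2.59 and 1.32, *Bbs7* by -3.36, -1.98 and 0.57 and *Evc2* by -1.41, -1.37 and 0.16. *Evc*, at -2.0, -1.53 and -0.59, and *Bbs10*, at -1.63, -0.77 and -0.61, kept their sign. *Ift20*, at 1.22, 2.81 and -0.01, and *Ift27*, at 2.49, 1.13 and -0.22, were higher in FL in replicates 1 and 2 and near 0 or below it in replicate 3.

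Without replicate 3 all 8 genes passed, 6 of them NT-higher and 2 FL-higher, in a fit where 43.0% of all 11231 genes passed. *Evc2* then differed by -1.39 ± 0.30 (SE, limma, adjusted p = 0.0045). The others ranged from -4.35 in *Dync2h1*, through -2.72 in *Ift172*, -2.67 in *Bbs7*, -1.77 in *Evc* and -1.21 in *Bbs10*, to 1.80 in *Ift27* and 2.01 in *Ift20*. Without replicate 1 or replicate 2, limma called 0 of all 11231 genes and so none of the 8, of which none had an unadjusted p under 0.05 either. Leaving out FL replicate 3 alone also gave 8 of 8, where 2167 of all 11231 genes were NT-higher and 1805 FL-higher. Leaving out NT replicate 3 alone gave 5 of 8 (*Dync2h1*, *Bbs7*, *Evc*, *Ift172* and *Ift27*), where 1235 of all genes were NT-higher and 1000 FL-higher. The sign of each gene in the model was the same in each of these fits. For 7 of the 8 genes, which a list of tissue-dependent TE supplied or which such a list also holds, these counts describe the dependence on replicate 3 and no more.

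**Figure D3:**
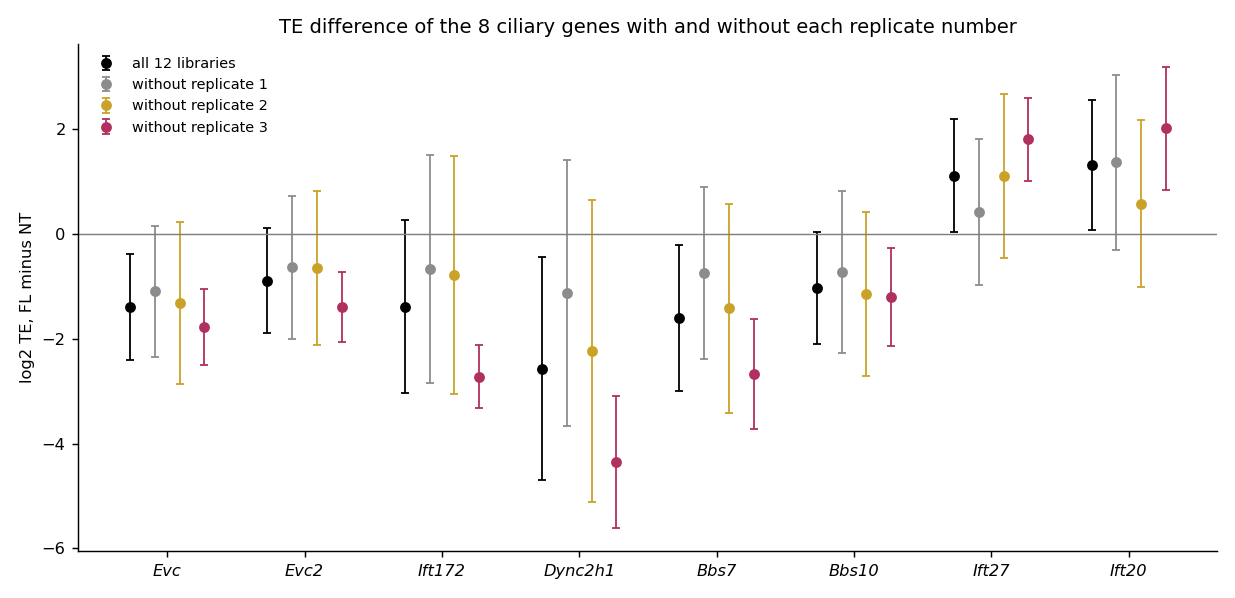
Log2 TE difference (FL minus NT) of the 8 genes from limma with all 12 libraries and without each replicate number, with 95% intervals. The estimates without replicate 3 run from -4.35 in *Dync2h1* to 2.01 in *Ift20* and lie farther from 0 than those of all libraries in each gene, with narrower intervals.

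CDS length moved with the TE difference. Among the 8 genes the shortest, *Ift20* and *Ift27*, were the only ones with a higher TE in FL in replicates 1 and 2, and the longest, *Dync2h1*, had the lowest value in both. Over 3000 genes with a symbol and an annotated CDS, Spearman's rho of the TE difference with CDS length was -0.76 in replicate 1, -0.79 in replicate 2 and 0.24 in replicate 3. These are correlations across genes of the same libraries, most of them listed for a tissue-dependent TE or a low TE, and genes are not independent replicates. In Ribo-Seq alone, replicate 3 over the mean of the other two had a rho of 0.79 with CDS length in FL and -0.60 in NT. *Dync2h1* showed both sides of it, at 6.22 times in FL and 0.235 times in NT, as did *Ift172* at 5.09 and 0.365 times, whereas *Ift20* read 0.368 times in FL and 1.48 times in NT and *Ift27* 0.451 and 1.96 times. In the mesoderm, rho of TE with CDS length was -0.49, -0.62 and -0.53 in replicates 1, 2 and 3 over 3115 genes. The part of CDS length in the TE of the ciliary genes was not tested.

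**Figure D4:**
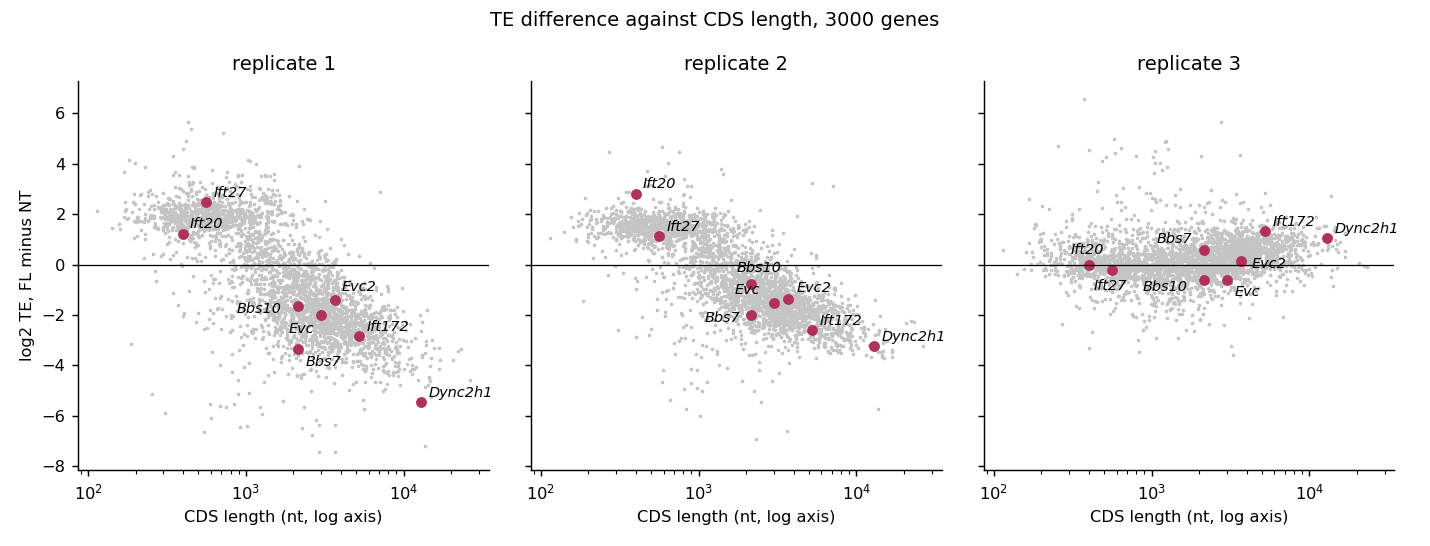
Log2 TE difference (FL minus NT, centred on the median gene) against annotated CDS length (nt, log axis) in each replicate number, with 3000 genes in grey and the 8 ciliary genes in red. Long genes lie low in replicates 1 and 2 (rho -0.76 and -0.79) and slightly high in replicate 3 (rho 0.24), and *Dync2h1* lies near the long end of each cloud.

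Of 86 genes listed for the cilium and its complexes (IFT-A, IFT-B, dynein-2, kinesin-2, BBSome and chaperonin-like genes, EVC complex, transition zone, basal body and satellites, and ciliary regulators of Shh), 27 had a symbol, and 19 of these were not among the 8. The same selection by TE applies to them. In the mesoderm 18 of the 19 were measured, 8 were TE-low in limma, where 10.9% of all genes were, with a median log2 TE of -1.44 against 0.00 for all genes. *Ift172*, *Evc*, *Dync2h1* and the 5 further genes had 4 that were TE-low and a median of -1.21. Among the 19 other genes *Mkks*, the chaperonin-like partner of *Bbs10*, had -2.68, the basal body genes *C2cd3* and *Alms1* had -2.06 and -1.97, and *Nphp4* of the transition zone had -1.98. The IFT-A genes *Wdr19* and *Ttc21b* had -1.03 and -0.91. Of the IFT-B genes, *Ift172* at -1.92 lay farther from the median gene than these, and *Ift20* at -0.24 and *Ift27* at 0.31 lay nearer.

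Between FL and NT, 15 of the 19 had a TE in FL below that of NT, with a median difference of -1.26 against 0.01 for all genes. With all libraries none of the 19 passed in limma or edgeR (10 and 8 at an unadjusted p under 0.05, against 16.9% and 15.7% of all genes), and 5 passed in DESeq2 (7.62% of all genes). Without replicate 3, 13 were NT-higher and 3 FL-higher, in the fit where 43.0% of all genes passed. The 3 were *Bbip1*, a small BBSome subunit, at 1.45, *B9d2* of the transition zone at 2.18 and *Tulp3*, an adaptor that brings receptors into the cilium, at 1.47. Their CDS measured 204, 528 and 1383 nt. *Kif7*, the kinesin that organises the tip for Gli proteins, and *Gpr161*, a ciliary receptor that restrains Shh signalling, were NT-higher at -1.76 and -1.25. In mRNA only *Bbip1* of the 19 passed, at -1.18 (NT-higher), where 10.2% of all genes were NT-higher and 8.71% FL-higher.

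Genes whose normalized reads ran most nearly parallel were sought for the 3 leading genes over the 12 NT and FL libraries, among 3011 genes with a symbol and a mean of at least 100 normalized reads. For *Dync2h1* they were *2700049A03Rik*, *Lyst* and *Atm*, with Pearson's r of 0.994, 0.993 and 0.993. For *Ift172* they were *Rttn*, *Med12* and *Dnajc13*, at 0.991, 0.991 and 0.990, and for *Evc* they were *Wwc2*, *Cacna1g* and *Chsy1*, at 0.992, 0.984 and 0.982. The points share their libraries and the split into RNA-Seq and Ribo-Seq, so r this high describes one pattern over 12 libraries and nothing more.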

How the data were processed

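RNA-Seq and Ribo-Seq were each made from 3 replicates of mesoderm, NT and FL. The authors trimmed adapters (cutadapt), aligned reads with Bowtie2 to canonical UCSC isoforms of mm10, kept unique reads, placed Ribo-Seq reads by the ribosomal A site and counted them along each CDS, leaving out 15 codons at its start and 5 at its end. Versions are not given in the sources used here. The deposited signal values are these counts divided by DESeq size factors, separately for the mesoderm and for NT with FL. In each library 100.0% of values were whole multiples of one step (within 0.006 normalized reads), so reads were recovered.

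Log2(normalized reads + 1) was fitted with limma 3.58.1 (R 4.3.3), variance following the mean, with p-values adjusted over the whole table. TE was Ribo-Seq over RNA-Seq, centred on the median, and fold changes are on this scale. Mesoderm RNA-Seq and Ribo-Seq of one number came from the same cells, and their deviations correlated at 0.74, 0.58 and 0.57, so the number was a block there. No low-value filter was applied. Alternatives were edgeR 4.0.16 and DESeq2 1.42.0 on recovered reads, pseudocounts of 8 and 0.1, a mean of at least 100 normalized reads, other blocks and left-out replicates. The members, lists and tests were chosen with earlier results of these data known. Named genes are the 8 members, at most 10 of the ciliary lists, and the 3 genes most like each of *Ift172*, *Evc* and *Dync2h1*. Columns of the study's own comparisons were not used. The limma fits were also run on simulated reads in which 200 genes had been altered. For TE in the mesoderm (12064 genes, 8-fold) all 200 were recovered. For the TE difference of NT and FL (11231 genes, 4-fold) 197 were recovered and 52 calls were false. These numbers describe the simulated reads only. In the measured NT and FL libraries 45 genes passed with all replicates and 4833 without replicate 3. Sensitivity and error in those libraries were not tested. Python 3.11.15, numpy 2.4.6, scipy 1.17.1 and pandas 2.3.3 served for the rest.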

Additional observations from a re-analysis of the deposited data

Results flagged for a closer look

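*Bbs10* is the gene of the 8 whose log2 TE was above the median gene in all 3 NT pairs of libraries (1.01, 0.40 and 0.38) and below it in all 3 FL pairs (-0.62, -0.37 and -0.23). Its difference in the model was -1.02 (FL minus NT). A list of tissue-dependent TE supplied the gene, so the difference was not tested. With groups of 3, no single library was tested as an outlier.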

How the results depend on the processing

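In the mesoderm, 3 to 4 of the 8 genes were TE-low when 1 replicate was left out, and over all genes 1160 to 1428 were TE-low and 72 to 271 TE-high. *Bbs10* ranged from -0.10 to 0.30, the former without replicate 1. For the TE difference, leaving out libraries gave 0 to 8 of the 8 genes, 0 to 2504 NT-higher and 0 to 2329 FL-higher genes of 11231, against 31 and 14 with all libraries. Without the Ribo-Seq libraries of replicate 3 it was 2498 and 2293, without NT replicate 3 it was 1235 and 1000, and without FL replicate 3 it was 2167 and 1805. DESeq2 gave 286 and 570, and edgeR 21 and 18. In Ribo-Seq reads, 1 to 5 of the 8 genes passed without 1 replicate (1591 to 2989 NT-higher and 1229 to 2753 FL-higher of all genes). *Evc*, at -0.05, turned to 0.10 in edgeR, 0.11 in DESeq2, 0.24 without replicate 1 and 0.09 without replicate 2, and was -0.49 without replicate 3. *Evc2* ranged from -0.113 without FL replicate 3 and -0.073 without replicate 3 or its Ribo-Seq libraries to 0.675 without replicate 1, and *Bbs10* from -0.847 to 0.012, the latter without replicate 1. *Dync2h1* mRNA ranged from -0.31 without replicate 1 to 0.47. TE in NT ranged from -0.49 to 0.32 in *Ift27* and from -0.26 to 0.65 in *Bbs7*, turning without replicate 1. TE-low and TE-high genes without 1 replicate numbered 270 to 396 and 29 to 36 in NT, and 917 to 2039 and 314 to 1406 in FL, with 3 to 5 of the 8 genes called in FL. The cause of these shifts was not tested.

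Both tissues were taken from shared embryos and the cells of each were divided between RNA-Seq and Ribo-Seq, but no source ties equal numbers to one sample. The main fit of NT and FL therefore did not take the numbers as a pairing. TE and differences by replicate in NT and FL match libraries by number only as a description, and another match would give other values. Deviations of one number correlated between NT and FL at -0.29, -0.50 and -0.58 in Ribo-Seq and at -0.02, -0.22 and -0.24 in RNA-Seq. Within a tissue RNA-Seq and Ribo-Seq correlated at -0.28, 0.35 and 0.05 in NT and 0.05, 0.12 and 0.09 in FL. With a replicate block of number the TE difference gave 5 NT-higher and 1 FL-higher genes in limma. With a replicate block of tissue and number it gave 3 and 1, and none of the 8 genes was called with either block. In the mesoderm without the block, the same 4 genes were TE-low. Depth limited *Bbs10* most, with as few as 39 Ribo-Seq reads in a mesoderm library.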
